A study of Mus musculus with 11 samples.

Results

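The comparison described here set small-intestinal epithelial cells of mice colonized with SFB against those of mice on a diet low in fermentable fiber. It took the 4 libraries titled SFB and the 4 titled NFF, 8 of the 11 RNA-seq libraries in the series. SFB mice had the genotype WT and the diet Standard chow, and their treatment was colonization with SFB, read here as segmented filamentous bacteria. NFF mice had the genotype WT, the diet Low fermentable fiber and no treatment. The 3 Control libraries, from WT mice on Standard chow without treatment, served only to place each gene between the other groups and to help estimate the spread. Diet and colonization therefore both differed between SFB and NFF, and their parts cannot be told apart in this comparison. All cells were live and sorted for the epithelial adhesion molecule EpCAM and against CD45 on leukocytes, CD31 on endothelium and CD44, which is abundant on crypt cells. The age of the mice was not given in the sources used here, nor was it said that each library came from a separate animal. The p-values therefore reflect the spread from library to library, which may be technical.

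Segmented filamentous bacteria live in the gut, attach to the lining of the ileum and promote T helper cells making IL-17 and IL-22. IL-22 acts on epithelial cells to raise antimicrobial lectins, serum amyloid A and the dual oxidase that makes hydrogen peroxide at the cell surface. Interferon gamma acts through factors such as IRF1 to raise immunity-related GTPases, the machinery that supplies peptides to MHC class I, and CIITA, the master activator of MHC class II genes. Fermentable fiber is broken down by gut bacteria to short-chain fatty acids, which epithelial cells take up and use. The series title names the link between dietary fiber and antigen presentation by these cells as its subject.

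Values were RPKM, read numbers divided by gene length and library size, and 10482 genes with at least 1 RPKM in at least 3 libraries were tested. A gene can pass this filter through the levels of 1 group alone. Some genes named below would not have passed without the SFB libraries, which favours finding them higher. They include Tgtp1, Tgtp2, Nlrc5, Plet1, Cd44, Tlr1, Lrg1, Cd274, Ifi44, Muc4, Tat and Tnfsf13b, and list counts below hold such genes. Dbp passed only through its NFF levels, which favours finding it lower. Epcam lay between 586 and 648 RPKM in NFF and between 494 and 670.4 in SFB, and 17 of 18 markers of intestinal epithelium had a row in the table. Of 26 markers of T cells and intraepithelial lymphocytes, 2 had a row, Itgae and Ptprc, whose summed level was 2.31 to 3.86 RPKM in NFF and 1.11 to 4.55 in SFB. Ptprc, which encodes CD45, was at 1.58, 2.09, 1.4 and 2.48 RPKM in NFF and at 1.05, 0.656, 1.35 and 0.247 in SFB (log2 difference -0.69, limma adjusted p = 0.107). Rows were also present for 2 of 16 markers of B and plasma cells, 3 of 22 of myeloid cells, 4 of 21 of stroma, endothelium and nerve, and 0 of 7 of red cells. Summed levels of the myeloid markers were 22.6 to 35.0 RPKM in NFF and 11.5 to 35.2 in SFB, and those of stroma, endothelium and nerve 4.98 to 6.61 and 5.22 to 8.84. The myeloid integrin gene Itgam was higher in SFB, at 3.48, 2.48, 2.48 and 1.12 RPKM in NFF and 6.65, 5.46, 7.57 and 12.7 in SFB (log2 difference 1.41 ± 0.3, adjusted p = 0.0189 by limma, ± SE), a call lost without NFF 2 or NFF 4 (adjusted p up to 0.0588), while Cd14 (0.93, adjusted p = 0.138) and Lyz2 (-1.5, adjusted p = 0.105) were not called. Lyve1, a marker of lymphatic endothelium, was higher (0.46 ± 0.12, adjusted p = 0.0403), a call lost without Control 5, any 1 NFF library or any 1 SFB library (adjusted p up to 0.134), and Pdgfrb (-0.22, adjusted p = 0.495) and Tagln (-0.19, adjusted p = 0.569) were not called. The part of such cells in the differences below was not tested. SFB 4 lay farthest out on the first principal component (42.3% of the variance) and SFB 2 on the second (20.3%), and calls were also made without both. RPKM sums per library ran from 237248 to 302661. The table holds no counts, so the depth of each library is unknown.

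In SFB against NFF, 769 of 10482 genes (7.34%) passed limma's test at an adjusted p under 0.05. Of these, 329 (3.14%) were higher in SFB and 440 (4.2%) were lower, while the median log2 difference over all tested genes was 0.02. The shares of 3.14% and 4.2% are the background for the list counts below. Every SFB library lay above every NFF library for 1062 genes (10.1%) and below for 1039 (9.91%). Leaving out each of the 11 libraries in turn kept the call of 227 of the 769 genes in every fit, 88 of them higher and 139 lower. Without NFF 2 the count was 242, without NFF 4 303, without NFF 3 426 and without SFB 3 472. Differences below are SFB minus NFF on the scale of log2(RPKM + 1), ± SE, a scale on which low genes, near 1 RPKM or less, move less than their true fold. Adjusted p-values are limma's with Benjamini-Hochberg adjustment over all tested genes, and RPKM values of a group follow the order of its library numbers.

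Ubd had the largest increase in SFB. It encodes FAT10, a ubiquitin-like tag for degradation by the proteasome. It stood at 1.49, 1.81, 5.95 and 3.28 RPKM in NFF and at 82.8, 189, 59.98 and 13.7 in SFB, a log2 difference of 4.01 ± 0.71, adjusted p = 0.00778. The lowest SFB library, SFB 4, still lay above the highest NFF library. Duoxa2, the maturation factor of the dual oxidase Duox2, stood at 19.9, 4.25, 20.1 and 10.5 RPKM in NFF and at 101, 209.7, 113 and 156 in SFB (3.45 ± 0.45, adjusted p = 0.00207). Every SFB library exceeded every NFF library by a wide margin. Lrg1, an acute-phase glycoprotein, was at 0.617, 0.313, 0.613 and 0.053 RPKM in NFF and at 3.24, 6.38, 29.9 and 34.3 in SFB (3.3 ± 0.74, adjusted p = 0.0228), with SFB 3 and SFB 4 far above SFB 1 and SFB 2. Its call was lost without NFF 2, NFF 4 or SFB 3 (adjusted p up to 0.0734). Olfm4, a secreted crypt glycoprotein, was at 3.58, 1.27, 6.11 and 4.38 RPKM in NFF and at 17.4, 20.02, 40.5 and 101 in SFB (3.00 ± 0.57, adjusted p = 0.0114), and Dmbt1, a mucosal scavenger receptor that binds bacteria, at 91.1, 94.05, 119.9 and 36.4 and 444, 316, 823 and 1245 (2.96 ± 0.46, adjusted p = 0.0042). In both genes SFB 4 was the highest library and the groups did not overlap. Plet1, an epithelial surface protein, was at 0.682, 0.576, 0.465 and 0.413 RPKM in NFF and at 3.17, 16.01, 17.6 and 16.5 in SFB (3.01 ± 0.41, adjusted p = 0.00227), so that SFB 1 stood apart from the other SFB libraries yet above NFF. The other genes among the 12 largest increases were Igtp, Ifitm3, Ly6a, Slfn2, Ifit1bl1 and H2-Aa, with log2 differences from 2.51 to 3.25.

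**Figure D1:**
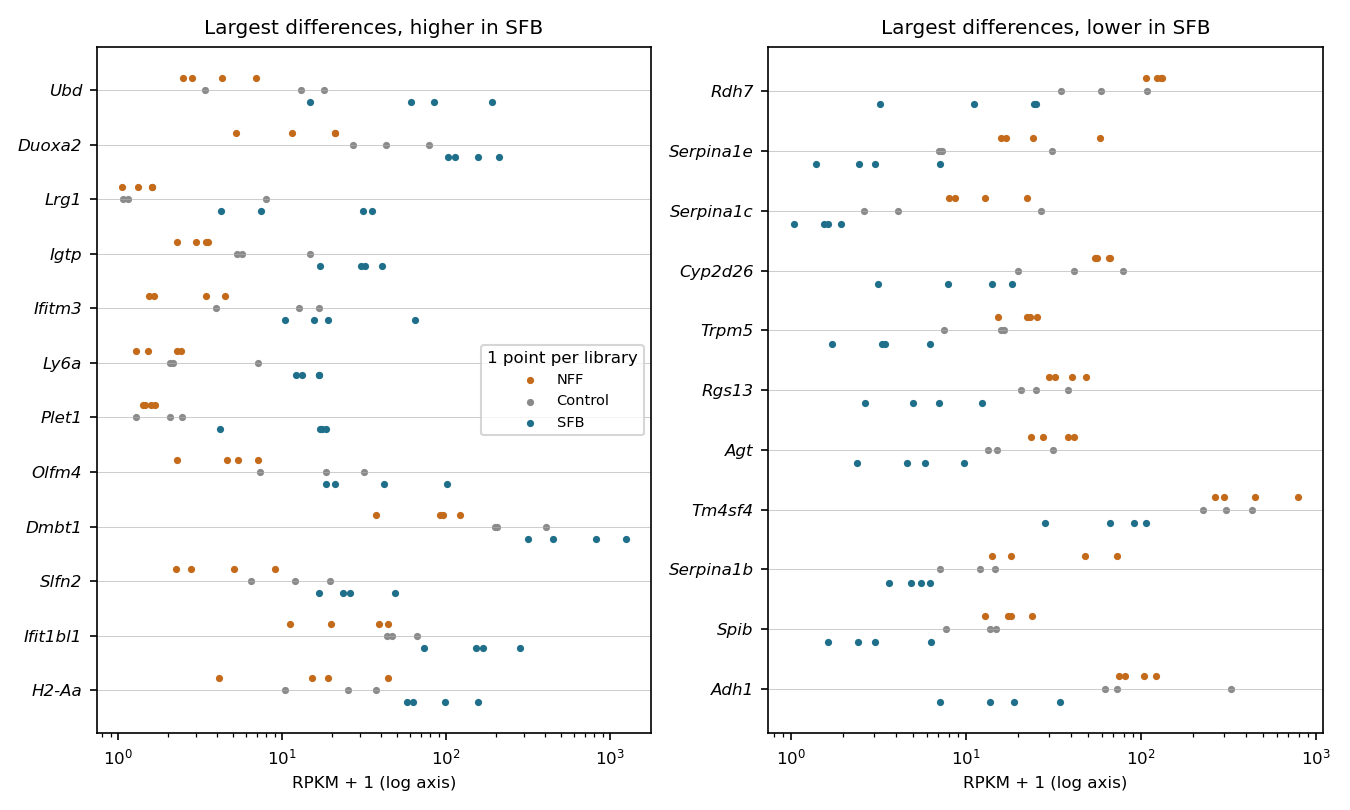
RPKM + 1 on a log axis for genes named in the text from the 12 largest called differences in each direction, among those with a mean of at least 3 RPKM over both groups and no overlap between them; 1 point per library, NFF in orange, Control in grey and SFB in blue. SFB points lie to the right of all NFF points in the left panel and to their left in the right panel.

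Rdh7, a dehydrogenase of the retinol and steroid family, had the largest decrease in SFB and stood at 123, 132, 106 and 131 RPKM in NFF and at 23.7, 24.4, 10.2 and 2.25 in SFB (-3.33 ± 0.56, adjusted p = 0.00596). NFF libraries were close together, whereas SFB 4 and SFB 3 were lower than the other SFB libraries. Cyp2d26, a cytochrome P450, was at 53.99, 65.4, 55.3 and 66.1 RPKM in NFF and at 17.5, 13.1, 6.92 and 2.16 in SFB (-2.76 ± 0.51, adjusted p = 0.0094), and again SFB 4 was the lowest library. Serpina1b, Serpina1c and Serpina1e, near-identical copies of the alpha-1-antitrypsin gene on chromosome 12 whose reads the counting could have split unevenly, differed by -2.62, -2.99 and -3.08. Serpina1e stood at 16.03, 23.2, 14.9 and 57.6 RPKM in NFF and at 1.45, 6.15, 2.05 and 0.404 in SFB (-3.08 ± 0.59, adjusted p = 0.0119). The call of Serpina1c was lost without NFF 2 or NFF 4 (adjusted p up to 0.0509). Agt, which encodes angiotensinogen, was at 22.8, 37.7, 26.6 and 40.4 RPKM in NFF and at 8.84, 3.64, 4.85 and 1.403 in SFB (-2.67 ± 0.39, adjusted p = 0.00296). Tm4sf4, a tetraspanin-like membrane protein, was at 297, 450.4, 266 and 788 and 106, 91.2, 66.03 and 27.4 (-2.64 ± 0.43, adjusted p = 0.00548), with no overlap in either gene. Also among the 12 were Trpm5, Rgs13 and Spib, taken up with the tuft cell, and Adh1.

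**Figure D2:**
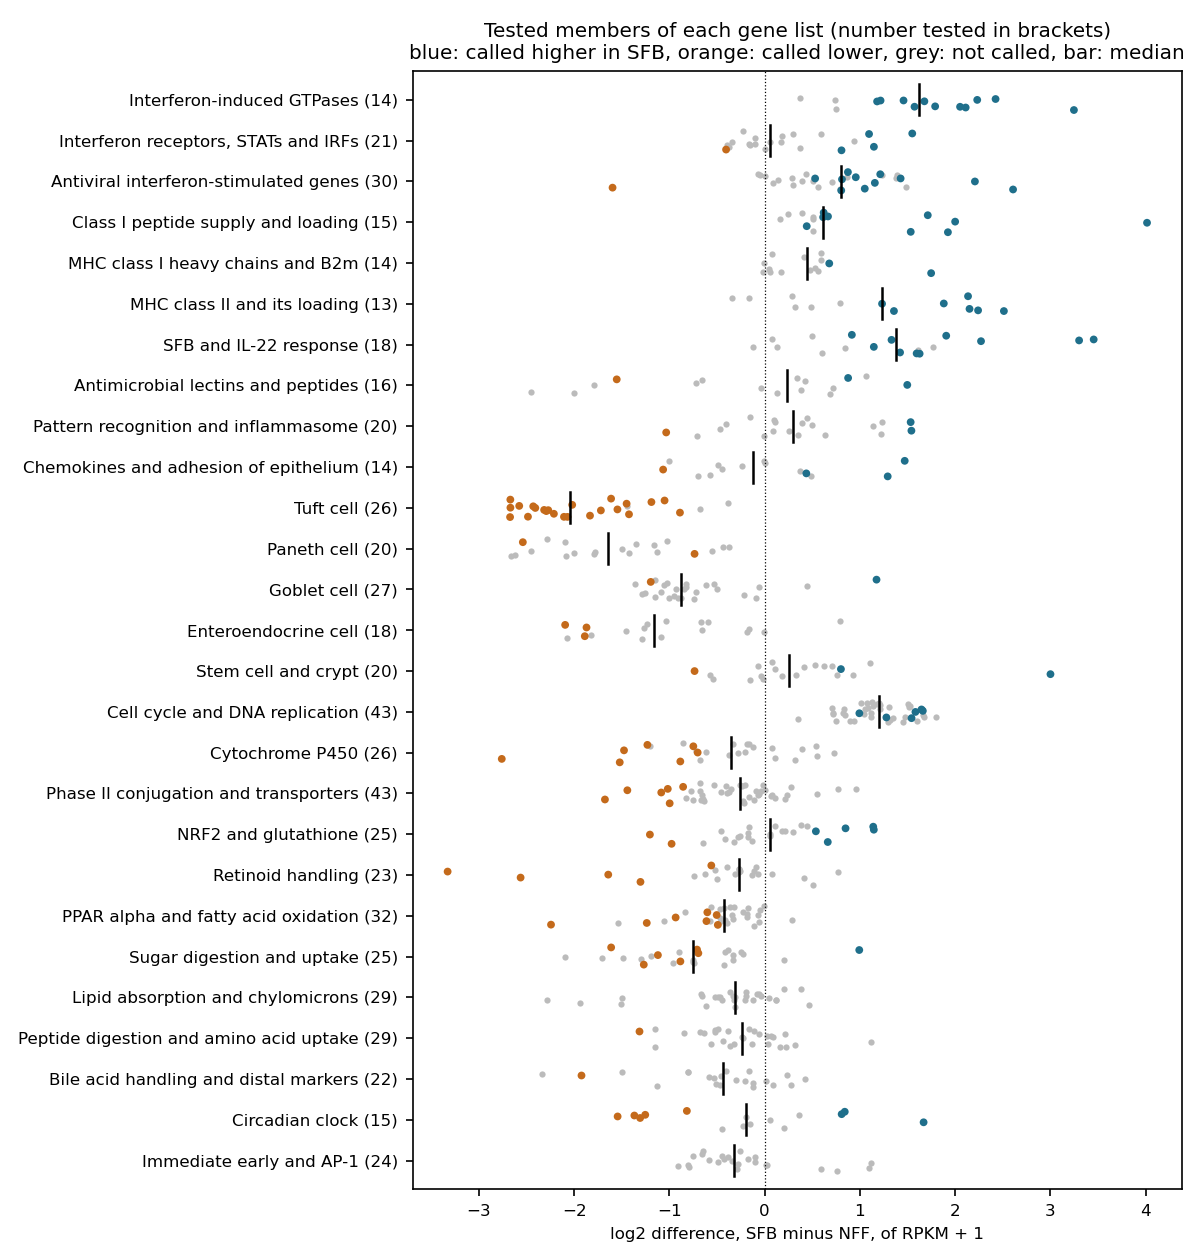
Log2 difference (SFB minus NFF, of RPKM + 1) of each tested member of 27 gene lists, with the number tested in brackets; blue points were called higher, orange points lower, grey points were not called, and the bar is the list's median. Tuft cell genes lie almost entirely at the left and interferon-induced GTPases at the right of 0, with medians of -2.05 and 1.63.

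Interferon-induced GTPases attack the membranes of vacuoles that hold microbes, and they stand among the genes that respond most sharply to interferon gamma. Of 18 listed members 14 were in the table, and all 14 were tested. Of these, 11 were higher in SFB (78.6%, against 3.14% of all tested genes) and 0 were lower, with a median log2 difference of 1.63. Each of the 11 calls was kept in all 11 fits that left out 1 library. With the stricter filter of at least 5 RPKM, which tested fewer genes, 4 members were called. Igtp (chromosome 11, 58199556 to 58207592, GRCm38.p6) stood at 2.51, 1.28, 1.995 and 2.41 RPKM in NFF and at 29.1, 39.4, 31.03 and 16.1 in SFB (3.25 ± 0.33, adjusted p = 0.000719). Irgm2, at 58214977 to 58222783 of the same chromosome, was at 1.06, 0.59, 1.39 and 0.57 RPKM in NFF and at 7.702, 12.8, 8.46 and 7.98 in SFB (2.42 ± 0.2, adjusted p = 0.000114). SFB 2 was the highest library in both genes. Irgm1, a regulator of the other members, was at 7.104, 6.22, 7.17 and 7.25 RPKM in NFF and at 22.7, 28.05, 24.1 and 22.95 in SFB (1.68 ± 0.13, adjusted p = 7.1e-05), with little spread within either group. Tgtp1 and Tgtp2 are near-identical neighbours that could share reads, and both passed the filter only because of their SFB levels. Tgtp1 was at 0.228, 0.309, 0.245 and 0.352 RPKM in NFF and at 3.19, 4.87, 5.49 and 4.902 in SFB (2.11 ± 0.16, adjusted p = 7e-05), and Tgtp2 at 0.355, 0.162, 0.362 and 0.304 and 3.798, 6.02, 5.36 and 5.36 (2.23 ± 0.16, adjusted p = 7e-05). Gbp2 (2.05), Ifi47 (1.79), Gbp7 (1.57), Gbp6 (1.46), Gbp10 (1.22) and Iigp1 (1.18) were also called. Gbp4 (0.75, adjusted p = 0.0823), Gbp8 (0.73, adjusted p = 0.14) and Gbp3 (0.37, adjusted p = 0.247) missed the threshold. The mean log2 level over the list ran from 0.83 to 1.01 in NFF, from 1.27 to 1.63 in Control and from 2.05 to 2.89 in SFB.

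The promoters of these GTPases carry short letter patterns that interferon-activated factors are known to bind. GAAANNGAA is the core of the interferon response element, bound by IRF factors, and TTCNNNGAA the core of the gamma activated site, bound by dimers of STAT factors, each searched on both strands. In RefSeq windows of GRCm38.p6 from 250 bases before to 50 after a gene's start, GAAANNGAA was found in 8 of 10 windows of the 9 matched GTPases (80%). The share was 14.67% among genes called higher, 5.76% among those called lower, 6.89% among all tested genes and 8.56% over all windows. TTCNNNGAA was found in 5 of the 10 windows (50%), against 10% of windows of genes called higher, 5.32% for those called lower, 6.79% for all tested genes and 8.3% over all windows. Stretches from 120 bases before the start to 20 after it follow for 6 called members, chosen because they show both patterns near the start or show how members vary. Capitals mark GAAANNGAA and TTCNNNGAA on either strand, and each sequence runs 5′ to 3′ along the gene. They lie at chr11:58199436-58199575 (Igtp, plus strand), chr11:58214857-58214996 (Irgm2, plus), chr11:48871401-48871540 (Irgm1, minus), chr11:48992227-48992366 (Tgtp1, minus), chr11:49064193-49064332 (Tgtp2, minus) and chr3:142620543-142620682 (Gbp2, plus).
Igtp: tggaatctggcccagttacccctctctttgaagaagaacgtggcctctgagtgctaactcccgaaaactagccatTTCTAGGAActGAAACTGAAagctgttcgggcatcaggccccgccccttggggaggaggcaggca
Irgm2: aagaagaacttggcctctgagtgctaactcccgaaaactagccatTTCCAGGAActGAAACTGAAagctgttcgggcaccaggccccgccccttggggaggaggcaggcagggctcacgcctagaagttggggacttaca
Tgtp1: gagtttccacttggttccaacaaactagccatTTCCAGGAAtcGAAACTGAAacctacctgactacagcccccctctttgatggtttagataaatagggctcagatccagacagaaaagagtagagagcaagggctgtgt
Tgtp2: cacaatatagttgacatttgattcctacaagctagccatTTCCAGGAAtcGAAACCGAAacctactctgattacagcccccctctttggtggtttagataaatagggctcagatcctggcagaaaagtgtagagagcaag
Irgm1: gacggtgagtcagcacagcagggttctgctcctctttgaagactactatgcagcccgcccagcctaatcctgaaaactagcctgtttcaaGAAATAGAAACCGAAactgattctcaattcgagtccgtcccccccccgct
Gbp2: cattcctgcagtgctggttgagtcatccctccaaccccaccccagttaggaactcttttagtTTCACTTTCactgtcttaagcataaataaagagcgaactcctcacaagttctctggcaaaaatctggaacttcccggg
In Igtp the TTCNNNGAA match began 45 and the GAAANNGAA match 34 bases before the start, and the same order held in Irgm2 (75 and 64), Tgtp1 (88 and 77) and Tgtp2 (81 and 70). A run of 17 bases that holds the first match, ctagccatttccaggaa, was common to Irgm2, Tgtp1 and Tgtp2. The Igtp and Irgm2 stretches were near-identical over most of their length. Windows of such close copies each count in the shares above, so their matches are not independent. Irgm1 had overlapping GAAANNGAA matches that began 30 and 24 bases before the start, and Gbp2 had 1 on the opposite strand 58 bases before it. A match describes these letters only and does not show that a factor was bound.

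Among interferon receptors, STATs, IRFs and their inhibitors, 4 of 21 tested genes were higher (19%, against 3.14% of all tested genes) and 1 was lower (4.76%, against 4.2%), with a median of 0.06. Irf1, a transcription factor induced by interferon gamma, stood at 41.3, 38.9, 38.9 and 40.8 RPKM in NFF and at 70.3, 79.1, 67.3 and 66.6 in SFB (0.81 ± 0.1, adjusted p = 0.00171). The groups did not overlap, and Control, at 51.96, 51.7 and 45.9 RPKM, lay between them. Irf8 (1.15 ± 0.14, adjusted p = 0.00144) and Socs1 (1.1 ± 0.16, adjusted p = 0.003), of which Socs1 encodes a feedback inhibitor of this pathway, were higher as well. These 3 calls were kept in every fit that left out 1 library. The receptor chains Ifngr1 (-0.4, adjusted p = 0.169), Ifngr2 (-0.38, adjusted p = 0.102), Ifnar1 (0.01, adjusted p = 0.979) and Ifnlr1 (-0.35, adjusted p = 0.219) were not called. Il10rb, a chain shared by the receptors for IL-10, IL-22 and interferon lambda, was lower (-0.4 ± 0.1, adjusted p = 0.0371), a call lost without Control 5, any 1 NFF library, SFB 1, SFB 3 or SFB 4 (adjusted p up to 0.105).

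Among 30 tested antiviral interferon-stimulated genes, 11 were higher (36.7%, against 3.14% of all tested genes) and 1 was lower (3.33%, against 4.2%), with a median of 0.8. Ifit1bl1, a member of the RNA-binding IFIT family, stood at 42.9, 18.9, 37.7 and 10.2 RPKM in NFF and at 167, 279, 150.4 and 72.5 in SFB (2.61 ± 0.45, adjusted p = 0.00704). Zbp1, a sensor of Z-form nucleic acid, was at 6.15, 3.35, 4.99 and 6.13 RPKM in NFF and at 35.2, 42.7, 29.6 and 11.5 in SFB (2.21 ± 0.37, adjusted p = 0.00582). In both genes SFB 2 was the highest and SFB 4 the lowest SFB library, and SFB 4 still lay above NFF. Ifi44 (1.43 ± 0.2, adjusted p = 0.00233), Bst2, the tether that holds budding virions (1.21 ± 0.23, adjusted p = 0.01), and Dtx3l (1.16 ± 0.21, adjusted p = 0.00894) kept their calls in every fit that left out 1 library. Ifi27 went the other way, from 26.5, 24.8, 25.9 and 29.01 RPKM in NFF to 10.6, 10.5, 8.29 and 4.503 in SFB (-1.6 ± 0.26, adjusted p = 0.00555), without overlap. Isg15 (1.39, adjusted p = 0.103), Ifit1 (1.49, adjusted p = 0.0897), Rsad2 (0.87, adjusted p = 0.169), Oas2 (-0.07, adjusted p = 0.891) and Irf7 (0.17, adjusted p = 0.778) were not called, although Isg15 and Ifit1 differed by more than Bst2 and Dtx3l. At an unadjusted limma p under 0.05 there were 21 of the 30 genes. The list's 12 calls became 6 without NFF 2, 7 without NFF 4, 19 without SFB 4 and 6 without both SFB 2 and SFB 4.

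Among genes that supply peptides to MHC class I, the steps from proteasome to transporter held most of the increases. In this list 9 of 15 tested genes were called higher (60%, against 3.14% of all tested genes) and 0 lower, with a median of 0.61. Tap1, a subunit of the transporter that moves peptides into the endoplasmic reticulum, stood at 6.93, 4.29, 6.22 and 4.95 RPKM in NFF and at 26.3, 29.4, 21.3 and 23.9 in SFB (2.00 ± 0.14, adjusted p = 7e-05). Psmb8, a catalytic subunit of the immunoproteasome, was at 18.7, 11.2, 21.4 and 20.5 RPKM in NFF and at 73.8, 81.1, 55.04 and 68.8 in SFB (1.92 ± 0.21, adjusted p = 0.000762), and its partner Psmb9 at 8.51, 5.204, 9.07 and 7.58 and 26.5, 34.1, 19.2 and 29.2 (1.71 ± 0.2, adjusted p = 0.00121). Within each of these 3 genes the groups were separated by a clear gap. Nlrc5, the transactivator of class I genes, was at 0.447, 0.384, 0.48 and 0.449 RPKM in NFF and at 3.65, 3.302, 4.5 and 1.75 in SFB (1.53 ± 0.19, adjusted p = 0.0017). Tapbpl, a peptide editor (0.62 ± 0.11, adjusted p = 0.00833), Tap2 (0.67 ± 0.18, adjusted p = 0.0433) and the proteasome activator subunits Psme2 (0.61 ± 0.14, adjusted p = 0.0277) and Psme1 (0.44 ± 0.12, adjusted p = 0.0484) had smaller differences. The calls of Tap2, Psme2 and Psme1 were lost without Control 5, any 1 NFF library, SFB 1, SFB 2 or SFB 3 (adjusted p up to 0.12), without any 1 NFF library, SFB 1 or SFB 2 (adjusted p up to 0.0981) and without Control 4, Control 5, any 1 NFF library, SFB 1, SFB 2 or SFB 4 (adjusted p up to 0.15). Ubd, Tap1, Psmb8, Psmb9, Nlrc5 and Tapbpl were called in every such fit, and without both SFB 2 and SFB 4 the list had 5 calls. The chaperones Canx (0.24, adjusted p = 0.429) and Calr (0.39, adjusted p = 0.15) and the editor Tapbp (0.17, adjusted p = 0.455) were not called.

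The class I molecules themselves had fewer calls, with 2 of 14 tested heavy chains and B2m called higher (14.3%, against 3.14% of all tested genes) and a median of 0.44. H2-Q6, a nonclassical class I gene, stood at 1.33, 1.66, 0.794 and 2.39 RPKM in NFF and at 9.13, 10.998, 6.46 and 4.304 in SFB (1.75 ± 0.31, adjusted p = 0.00778), a call kept in every fit that left out 1 library. H2-Q4 was at 1.49, 1.49, 1.09 and 1.56 RPKM in NFF and at 3.24, 3.14, 3.26 and 1.91 in SFB (0.68 ± 0.18, adjusted p = 0.0477), and its call was lost without Control 4, any 1 NFF library, SFB 1, SFB 2 or SFB 3 (adjusted p up to 0.116). Without SFB 4 the list had 5 calls, H2-Q4 among them, and without Control 4, any NFF library or any other SFB library it had 1. The H2-Q genes are close copies, so reads may have been shared between them. The classical chains H2-K1 (0.53, adjusted p = 0.136) and H2-D1 (0.59, adjusted p = 0.0795) and B2m (0.48, adjusted p = 0.229), the common light chain, were not called.

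MHC class II genes, which present peptides to CD4 T cells, were higher in SFB for 7 of 13 tested members (53.8%, against 3.14% of all tested genes) and lower for 0, with a median of 1.23. Ciita stood at 1.13, 0.508, 2.28 and 1.18 RPKM in NFF and at 4.32, 4.38, 5.06 and 3.02 in SFB (1.23 ± 0.22, adjusted p = 0.00728), and Control, at 0.886, 1.37 and 1.44, lay level with NFF. H2-Aa, the class II alpha chain, was at 14.1, 3.12, 43.03 and 18.1 RPKM in NFF and at 96.9, 155, 61.6 and 56.7 in SFB (2.51 ± 0.63, adjusted p = 0.0354). The NFF libraries spanned a wide range, with NFF 2 lowest and NFF 3 highest, and the groups did not overlap. Cd74, the invariant chain that guides class II molecules, was at 142, 33.8, 352 and 121 RPKM in NFF and at 559, 721, 435 and 454 in SFB (2.14 ± 0.56, adjusted p = 0.0399). H2-Eb1, a beta chain, was at 18.4, 4.35, 53.2 and 13.7 and 82.7, 118, 51.1 and 61.1 RPKM (2.15 ± 0.55, adjusted p = 0.0375), where NFF 3 lay above SFB 3. H2-DMb1 (2.24 ± 0.49, adjusted p = 0.0206), H2-Ab1 (1.88 ± 0.48, adjusted p = 0.0386) and H2-DMa (1.36 ± 0.33, adjusted p = 0.0317), of which the DM chains load peptides, were called as well. The lysosomal enzymes Ctss (0.28, adjusted p = 0.333), Lgmn (0.49, adjusted p = 0.199), Ctsb (0.32, adjusted p = 0.147) and Ifi30 (-0.17, adjusted p = 0.499) were not.

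Ciita alone among these 7 kept its call in every fit that left out 1 library. The list had 1 call without NFF 2 or without NFF 4, 2 without NFF 1, SFB 1 or SFB 2, 3 without SFB 3 and 4 without Control 5, and it had 2 without both SFB 2 and SFB 4. The highest limma adjusted p over these fits was 0.0795 for H2-Aa, 0.101 for Cd74, 0.104 for H2-Eb1 and 0.0906 for H2-Ab1. Their log2 differences over the fits ran from 1.89 to 3.03, from 1.54 to 2.65, from 1.6 to 2.71 and from 1.37 to 2.32. The mean log2 level over the list was 3.26 in NFF 2, 4.05 to 4.79 in the other NFF libraries and 4.95 to 5.49 in SFB.

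**Figure D3:**
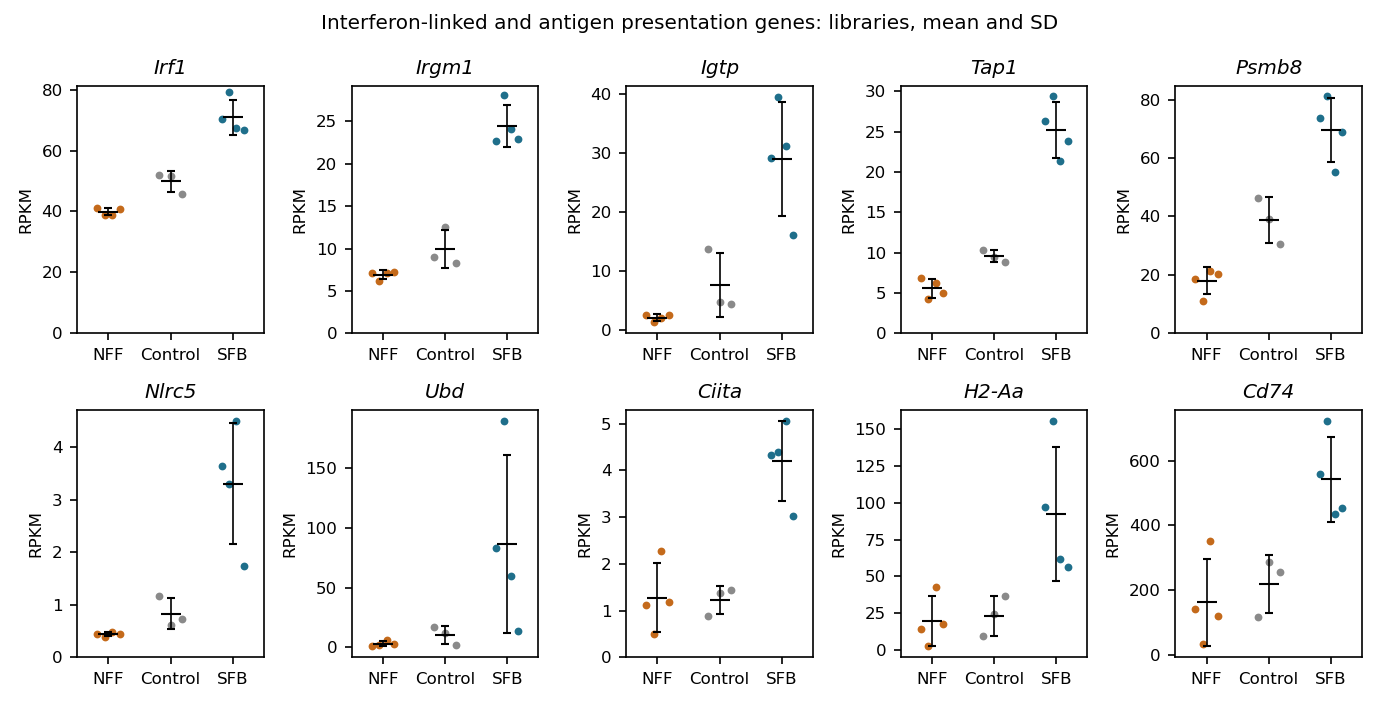
RPKM of 10 interferon-linked and antigen presentation genes in each NFF (orange), Control (grey) and SFB (blue) library, with the mean and SD of the group. For Irf1, Irgm1, Tap1 and Psmb8 the groups are well apart, whereas NFF values of H2-Aa and Cd74 are spread from 3.12 to 43.03 and from 33.8 to 352 RPKM.

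Class II promoters are known for an array of boxes near the start that ends in a Y box, whose core is CCAAT and which is bound by NF-Y. The array recruits CIITA. CCAAT was found on either strand in 6 of 11 windows (54.55%) of the 9 matched class II list genes, against 38.26% of windows of tested genes, 44.33% of those called higher and 37.41% over all windows. The share was similar for class I peptide supply (53.85%), the SFB and IL-22 list (50%) and the NRF2 list (48.39%). In the other lists searched it ran from 20% (GTPases) to 31.82% (tuft cell). The 3 called members shown were chosen because their windows reach the start and hold the core; they appear with CCAAT or its complement in capitals, again from 120 bases before the start to 20 after it, at chr17:34287804-34287943 (H2-Aa, minus strand), chr17:34305747-34305886 (H2-Eb1, plus) and chr17:34153071-34153210 (H2-DMb1, plus) of GRCm38.p6.
H2-Aa: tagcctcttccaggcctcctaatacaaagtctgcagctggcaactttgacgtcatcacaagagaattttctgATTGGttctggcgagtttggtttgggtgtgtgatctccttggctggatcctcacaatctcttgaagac
H2-Eb1: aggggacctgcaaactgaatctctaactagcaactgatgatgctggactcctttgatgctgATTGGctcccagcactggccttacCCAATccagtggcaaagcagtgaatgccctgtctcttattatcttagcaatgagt
H2-DMb1: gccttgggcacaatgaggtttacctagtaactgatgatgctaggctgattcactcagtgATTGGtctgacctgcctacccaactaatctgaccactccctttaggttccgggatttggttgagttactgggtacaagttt
A match written ATTGG along the gene began 48 bases before the start in H2-Aa, 59 in H2-Eb1 and 61 in H2-DMb1, and H2-Eb1 had another match 35 bases before the start. GAAANNGAA was found in 1 of the 11 class II windows (9.09%).

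Genes listed as responding to SFB or IL-22 were higher for 10 of 18 tested members (55.6%, against 3.14% of all tested genes) and lower for 0, with a median of 1.38. Like the other lists, this list was chosen with earlier results of these data known, so its share is no independent support. Duox2, the dual oxidase itself, stood at 27.3, 8.64, 20.8 and 7.08 RPKM in NFF and at 58.6, 67.9, 67.998 and 91.2 in SFB (2.27 ± 0.43, adjusted p = 0.0113). It neighbours Duoxa2 on chromosome 2, and the groups did not overlap in either gene. Gpx2, a glutathione peroxidase of the gut epithelium, was at 228, 153, 242 and 177 RPKM in NFF and at 360.4, 476, 473 and 444 in SFB (1.15 ± 0.21, adjusted p = 0.00908). Nfkbiz, a regulator of NF-kB targets (1.42 ± 0.19, adjusted p = 0.0022), also kept its call in every fit that left out 1 library, as did Duox2, Duoxa2 and Gpx2. Tat, a tyrosine aminotransferase, rose from 0.374, 0.46, 1.75 and 0.671 RPKM in NFF to 2.91, 6.87, 11.9 and 3.58 in SFB (1.91 ± 0.39, adjusted p = 0.0149), a call lost without NFF 2 (adjusted p up to 0.0556). Nos2, the inducible nitric oxide synthase, was at 56.4, 40.9, 48.5 and 30.3 RPKM in NFF and at 72.7, 110.1, 103 and 43.9 in SFB (0.84 ± 0.36, adjusted p = 0.165), with SFB 4 inside the NFF range. Saa1, serum amyloid A, was at 95.6, 15.1, 60.7 and 65.2 and 70.7, 246, 343 and 88.3 RPKM (1.61 ± 0.82, adjusted p = 0.242), and Fut2, which fucosylates the epithelial surface, at 2.23, 1.64, 0.747 and 2.51 and 1.199, 2.44, 5.45 and 3.28 (0.5 ± 0.3, adjusted p = 0.317). Neither was called, and the groups overlapped in both. The list's 10 calls became 4 without NFF 2, 5 without NFF 4, 6 without SFB 3 and 4 without both SFB 2 and SFB 4.

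Antimicrobial lectins of the Reg3 family split in direction. Reg3g, which kills Gram-positive bacteria, stood at 851, 538, 991 and 567 RPKM in NFF and at 1709, 1969, 2802 and 1739.8 in SFB (1.5 ± 0.32, adjusted p = 0.0186), a call lost without NFF 2, NFF 4 or SFB 3 (adjusted p up to 0.072). Reg3b was at 1922, 1322, 2089 and 1498 RPKM in NFF and at 3024, 3576, 4838 and 2908 in SFB (1.06 ± 0.33, adjusted p = 0.0735), so that the groups did not overlap but the test was not passed. Reg3a went down, from 407, 414, 412 and 399 RPKM in NFF to 129, 169, 157 and 107 in SFB (-1.55 ± 0.17, adjusted p = 0.000977), with Control in between at 330.2, 227 and 271. Its call was kept in every fit that left out 1 library. Pigr, which carries IgA across the epithelium, was at 545, 467, 600.4 and 315 RPKM in NFF and at 861, 869, 804 and 914 in SFB (0.88 ± 0.22, adjusted p = 0.0332), and lost its call without NFF 1, NFF 2, NFF 4, SFB 1, SFB 3 or SFB 4 (adjusted p up to 0.0958). In all, 2 of 16 tested antimicrobial genes were higher (12.5%, against 3.14% of all tested genes) and 1 was lower (6.25%, against 4.2%), with a median of 0.23. The list had 1 call without NFF 2, NFF 4 or SFB 3.

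Of 20 tested genes of pattern recognition and inflammasomes, 2 were higher (10%, against 3.14% of all tested genes) and 1 was lower (5%, against 4.2%), with a median of 0.3. Tlr1 and Tlr2, which pair to sense bacterial lipoproteins, rose together. Tlr2 stood at 1.096, 0.902, 0.525 and 0.494 RPKM in NFF and at 2.87, 3.32, 4.46 and 6.14 in SFB (1.54 ± 0.22, adjusted p = 0.00257), and Tlr1 at 0.353, 0.43, 0.631 and 0.508 and 2.48, 2.88, 3.21 and 4.88 (1.53 ± 0.21, adjusted p = 0.0022). Naip5, an inflammasome sensor of flagellin, was lower, at 68.9, 75.7, 62.9 and 76.7 RPKM in NFF and 41.6, 33.8, 45.3 and 21.1 in SFB (-1.03 ± 0.22, adjusted p = 0.0171), a call lost without NFF 2 or NFF 4 (adjusted p up to 0.06). The list had 8 calls without Control 2 and 5 without Control 5. Among 14 tested chemokines and surface ligands, 3 were higher, Cd274 (1.47 ± 0.31, adjusted p = 0.0186), Ccl28 (1.29 ± 0.27, adjusted p = 0.0177) and Tnfsf13b (0.44 ± 0.12, adjusted p = 0.0458), and 1 was lower, Ccl6 (-1.07 ± 0.29, adjusted p = 0.0492). The shares called in this list were 21.4% higher and 7.14% lower. Cd274 encodes PD-L1, which restrains T cells, and Ccl28 attracts cells that make IgA. Cd274 stood at 0.48, 0.244, 0.338 and 0.822 RPKM in NFF and at 2.495, 5.496, 4.23 and 1.23 in SFB. None of these 4 calls held in every fit: Cd274 was lost without NFF 2 or SFB 3 (adjusted p up to 0.0665), Ccl28 without NFF 2 or NFF 4 (adjusted p up to 0.0588), Ccl6 without Control 4, Control 5, NFF 2, NFF 3, NFF 4, SFB 1, SFB 2 or SFB 4 (adjusted p up to 0.137) and Tnfsf13b without Control 4, Control 5, any 1 NFF library or any 1 SFB library (adjusted p up to 0.146). The list had 0 calls without NFF 2, 1 without NFF 4, and 2 without Control 4, Control 5, NFF 3, SFB 1, SFB 3, SFB 4 or both SFB 2 and SFB 4.

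Tuft cells are rare chemosensory cells that detect metabolites of microbes and parasites through a taste-like cascade. Of 26 tested tuft cell genes, 23 were lower in SFB (88.5%, against 4.2% of all tested genes) and 0 were higher, with a median of -2.05. Trpm5, the cation channel at the end of the taste cascade, stood at 21.5, 22.5, 14.2 and 24.6 RPKM in NFF and at 5.24, 2.35, 2.48 and 0.727 in SFB (-2.67 ± 0.36, adjusted p = 0.0022). Dclk1, the kinase most used to mark these cells, was at 5.21, 6.76, 4.12 and 5.62 RPKM in NFF and at 1.58, 0.897, 1.19 and 0.296 in SFB (-1.72 ± 0.23, adjusted p = 0.0022), and Rgs13, a regulator of G protein signalling, at 31.2, 39.4, 29.02 and 47.9 and 11.5, 6.03, 3.996 and 1.66 (-2.67 ± 0.39, adjusted p = 0.00289). In all 3 genes SFB 1 was the highest and SFB 4 the lowest SFB library, and every SFB library was under every NFF library. Spib, a transcription factor that also marks M cells, was lower too (-2.58 ± 0.37, adjusted p = 0.00277). Pou2f3, the transcription factor that specifies the lineage, was lower (-1.45 ± 0.25, adjusted p = 0.00611), as were Gnat3, the taste G protein gustducin (-2.21 ± 0.41, adjusted p = 0.00919), Alox5, which makes leukotrienes (-2.02 ± 0.28, adjusted p = 0.00255), and Siglecf (-2.43 ± 0.37, adjusted p = 0.00332). The genes not called were Sucnr1, a succinate receptor (-1.45, adjusted p = 0.052), Gfi1b (-0.68, adjusted p = 0.239) and Plcg2 (-0.39, adjusted p = 0.139).

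The tuft cell calls were little moved by single libraries: 19 of the 23 were kept in every fit that left out 1 library. The 4 others were Ltc4s, Chat, Il17rb and Plcb2, lost without NFF 2, NFF 4 or SFB 3 (adjusted p up to 0.0842), without NFF 1, NFF 2 or NFF 4 (adjusted p up to 0.0824), without Control 5, NFF 1, NFF 2, NFF 4, SFB 1, SFB 2 or SFB 4 (adjusted p up to 0.134) and without NFF 1, NFF 2, NFF 4, SFB 1, SFB 3 or SFB 4 (adjusted p up to 0.0889). The summed level of the list was 427 to 745 RPKM in NFF, 325 to 509 in Control and 77.7 to 216 in SFB. In these bulk libraries, fewer tuft cells and less of these transcripts per tuft cell cannot be told apart.

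The other secretory lineages had lower medians but few calls. Paneth cell genes had 2 of 20 called lower (10%, against 4.2% of all tested genes) and a median of -1.64, and SFB 2 stood apart. The median was -0.54 without SFB 2 and -0.29 without both SFB 2 and SFB 4. Lyz1, the Paneth cell lysozyme, stood at 2701, 2872, 4002 and 2273 RPKM in NFF and at 2234, 28.1, 2603 and 1284 in SFB (-2.09 ± 1.13, adjusted p = 0.271). SFB 2 was far below all others, and its mean log2 level over the Paneth list was 2.86, against 6.53 to 7.4 in the other SFB libraries and 7.31 to 8.11 in NFF. The called genes were Pnliprp2, a lipase (-2.54 ± 0.65, adjusted p = 0.0389), and Sox9, a transcription factor of crypt cells (-0.74 ± 0.19, adjusted p = 0.0371), lost without any 1 NFF library, SFB 3 or SFB 4 (adjusted p up to 0.0976) and without any 1 NFF library, SFB 1 or SFB 3 (adjusted p up to 0.102). The list had 0 calls without any 1 NFF library or SFB 3, and 1 without SFB 1, SFB 4 or both SFB 2 and SFB 4. Goblet cell genes had 1 of 27 called higher (3.7%, against 3.14% of all tested genes) and 1 lower (3.7%, against 4.2%), with a median of -0.88. Both shares of called genes were close to those of all tested genes. Of the 27, however, 2 were above 0, against 5521 of all 10482 tested genes. At an unadjusted limma p under 0.05 there were 19 of the 27, against 25.7% of all tested genes. Muc4, a membrane mucin, rose from 0.926, 0.513, 0.686 and 0.541 RPKM in NFF to 2.77, 2.09, 3.44 and 2.79 in SFB (1.17 ± 0.15, adjusted p = 0.00172), without overlap. Muc2, the secreted gel-forming mucin, was at 198, 609, 317 and 525 RPKM in NFF and at 291, 191, 293 and 93.1 in SFB (-0.93 ± 0.42, adjusted p = 0.189) and was not called. Guca2a, the hormone guanylin, was lower (-1.2 ± 0.32, adjusted p = 0.0437), a call lost without Control 5, any 1 NFF library, SFB 1, SFB 3 or SFB 4 (adjusted p up to 0.123). Without NFF 1 the goblet list had 9 calls, and it had 1 without Control 5, NFF 2, NFF 3, NFF 4, SFB 1, SFB 3, SFB 4 or both SFB 2 and SFB 4.

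Enteroendocrine genes had 3 of 18 called lower (16.7%, against 4.2% of all tested genes), 0 higher and a median of -1.16. Chgb, a granin of hormone granules, stood at 229, 260.2, 152 and 344 RPKM in NFF and at 52.5, 85.04, 47.97 and 41.4 in SFB (-2.09 ± 0.53, adjusted p = 0.0368), and the related Chga was lower as well (-1.87 ± 0.5, adjusted p = 0.0455). Control libraries of Chgb lay on both sides, at 609.7, 95.1 and 83.8 RPKM. Pcsk1n, an inhibitor of the prohormone convertase, was the third (-1.89 ± 0.45, adjusted p = 0.0278). The calls were lost without any 1 NFF library, SFB 1, SFB 3 or SFB 4 (adjusted p up to 0.11), without any 1 NFF library, SFB 1, SFB 3 or SFB 4 (adjusted p up to 0.133) and without NFF 2, NFF 4, SFB 1 or SFB 4 (adjusted p up to 0.075). Without Control 2 the list had 6 calls. It had 1 without NFF 1, NFF 3 or SFB 3, and 0 without NFF 2, NFF 4, SFB 1, SFB 4 or both SFB 2 and SFB 4.

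**Figure D4:**
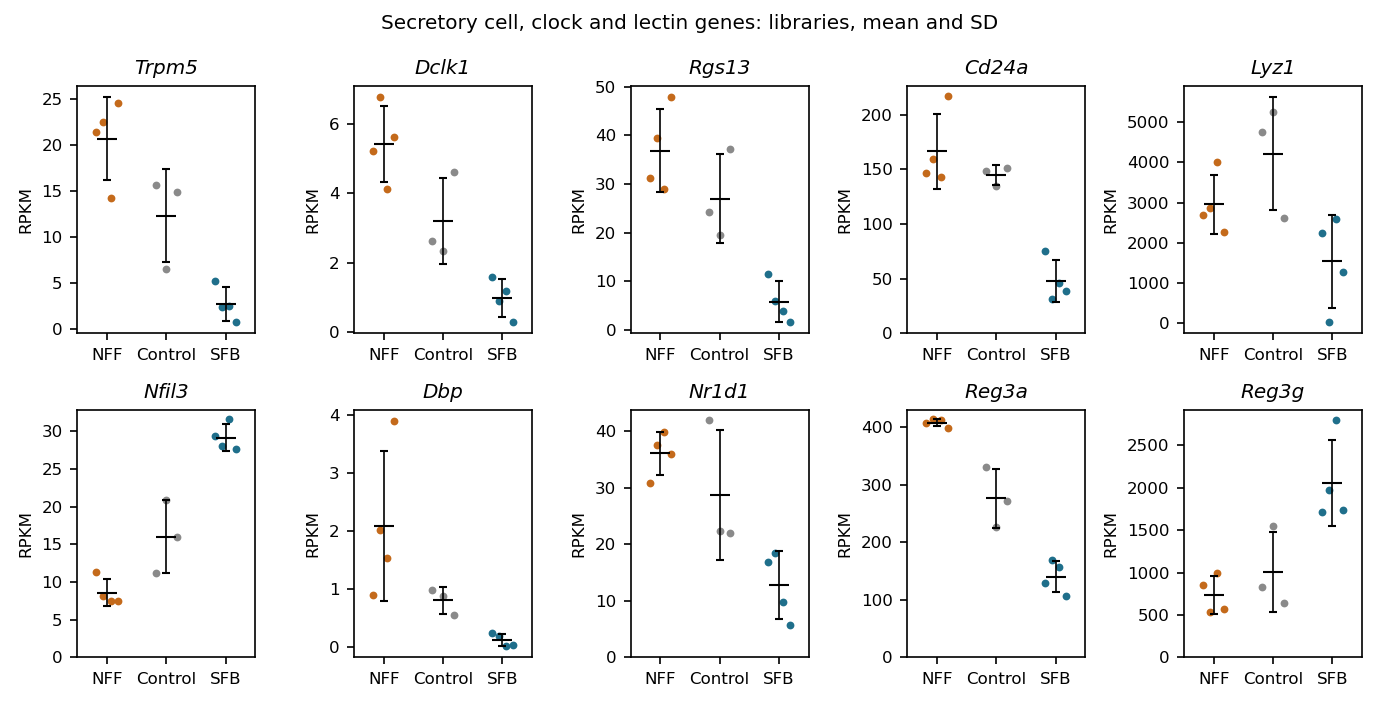
RPKM of tuft cell (Trpm5, Dclk1, Rgs13, Cd24a), Paneth cell (Lyz1), clock (Nfil3, Dbp, Nr1d1) and lectin (Reg3a, Reg3g) genes in each NFF (orange), Control (grey) and SFB (blue) library, with the mean and SD of the group. Every SFB library lies below every NFF library for the tuft genes, Dbp, Nr1d1 and Reg3a and above it for Nfil3 and Reg3g, while for Lyz1 SFB 2 is far below the rest.

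Genes of crypts and dividing cells were measured because the sort removed CD44-positive cells. Cd44 was low yet stood at 0.646, 0.587, 0.333 and 0.583 RPKM in NFF and at 1.46, 1.17, 2.29 and 1.899 in SFB (0.8 ± 0.16, adjusted p = 0.0125), without overlap and with its call kept in every fit that left out 1 library. It passed the filter only because of its SFB levels, which favours finding it higher. Of 20 tested stem cell and crypt genes, 2 were higher (10%, against 3.14% of all tested genes), Cd44 and Olfm4. Another, Sox9, was lower (5%, against 4.2%), and the list's median was 0.26. Lgr5, the marker of crypt base stem cells, was not called (0.11, adjusted p = 0.749). Cell cycle and DNA replication genes were above 0 for 43 of 43 tested members, against 5521 of all 10482 tested genes, and had a median of 1.2. Of the 43, 6 were called higher (14%, against 3.14% of all tested genes) and 0 lower. Ccnb2, a mitotic cyclin, stood at 6.64, 10.7, 12.7 and 7.68 RPKM in NFF and at 24.8, 18.8, 27.8 and 71.9 in SFB (1.66 ± 0.39, adjusted p = 0.0277), and Birc5, the chromosomal passenger survivin, at 2.77, 3.45, 4.61 and 3.05 and 9.38, 8.096, 10.5 and 27.3 (1.58 ± 0.35, adjusted p = 0.0224). SFB 4 was far above the other SFB libraries in both genes. Mki67 was not called (1.21, adjusted p = 0.0973). The list's mean log2 level ran from 1.71 to 2.2 in NFF, from 1.88 to 3.37 in Control and from 2.43 to 4.27 in SFB. None of the 6 calls held in every fit. The list had 20 calls without SFB 2 and 15 without Control 2 or without Control 4. It had 3 without SFB 1, 2 without NFF 3, 1 without NFF 1 or SFB 3, 0 without NFF 2 or NFF 4, and 2 without both SFB 2 and SFB 4. With median ratio scaling there were 13 calls, with quantile normalization 15, with SFB and NFF fitted alone 13 and with a pseudocount of 4 there were 3. Ccnb2 was lost without NFF 1, NFF 2, NFF 4 or SFB 3 (adjusted p up to 0.0857), and Birc5 without NFF 1, NFF 2 or NFF 4 (adjusted p up to 0.0687). The part of this shift in the other differences was not tested.

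Enzymes of drug and xenobiotic metabolism were mostly lower in SFB where they differed. Of 26 tested cytochrome P450 genes and their reductase, 7 were lower (26.9%, against 4.2% of all tested genes) and 0 higher, with a median of -0.35. The median was -0.19 without SFB 4 and -0.53 without SFB 2. Besides Cyp2d26, Cyp2u1 stood at 12.2, 17.7, 18.1 and 17.6 RPKM in NFF and at 4.05, 4.39, 5.29 and 6.52 in SFB (-1.52 ± 0.16, adjusted p = 0.000719), and Cyp2c68 at 50.5, 72.4, 65.7 and 86.2 and 30.4, 32.6, 21.01 and 14.7 (-1.48 ± 0.24, adjusted p = 0.00552). The groups were apart in both, and these calls were kept in every fit that left out 1 library, as were those of Por, the reductase that feeds electrons to the P450 enzymes (-0.89 ± 0.15, adjusted p = 0.00555), and Cyp2j6 (-0.7 ± 0.13, adjusted p = 0.0103). Cyp27a1, a sterol hydroxylase (-1.23 ± 0.25, adjusted p = 0.0147), lost its call without NFF 2 or NFF 4 (adjusted p up to 0.0511). Cyp3a11, the main drug-metabolizing P450 of mouse gut, was at 19.4, 13.5, 19.3 and 22.7 RPKM in NFF and at 58.2, 44.6, 23.9 and 8.62 in SFB (0.55 ± 0.49, adjusted p = 0.508), with SFB 4 below NFF and Control above both groups at 212, 75.8 and 124. Of 43 tested phase II enzymes and transporters, 6 were lower (14%, against 4.2% of all tested genes) and 0 higher, with a median of -0.26. The largest decreases were those of the glutathione transferases Gsta4 (-1.68 ± 0.33, adjusted p = 0.0124) and Gstt1 (-1.44 ± 0.34, adjusted p = 0.0277). Gsta4 stood at 28.4, 58.4, 34.9 and 69.98 RPKM in NFF and at 14.1, 15.5, 12.1 and 12.02 in SFB. The call of Gsta4 was lost without NFF 2 (adjusted p up to 0.0503), and that of Gstt1 without NFF 2, NFF 3, NFF 4, SFB 3 or SFB 4 (adjusted p up to 0.0865). Gstm1, another transferase, was at 4.42, 4.71, 6.09 and 5.87 RPKM in NFF and at 12.05, 12.2, 6.44 and 9.01 in SFB (0.77 ± 0.38, adjusted p = 0.222), not called although the groups did not overlap. The phase II list had 10 calls without Control 2, 2 without NFF 4, 1 without NFF 3, SFB 3 or both SFB 2 and SFB 4, and 0 without NFF 2.

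Antioxidant genes of the NRF2 and glutathione list had 5 of 25 tested members higher (20%, against 3.14% of all tested genes), 2 lower (8%, against 4.2%) and a median of 0.06. Gsr, glutathione reductase, stood at 170.3, 126, 169 and 122 RPKM in NFF and at 295, 324, 298 and 374 in SFB (1.14 ± 0.23, adjusted p = 0.0142), beside Gpx2 above. Akr1b8, an aldose reductase (0.85 ± 0.16, adjusted p = 0.0113), and Nqo1, a quinone reductase (0.66 ± 0.13, adjusted p = 0.0149), were also higher. Cat, the peroxisomal catalase that removes hydrogen peroxide, was lower, at 111, 110.1, 111 and 88.6 RPKM in NFF and 54.1, 54.1, 37.9 and 36.4 in SFB (-1.2 ± 0.19, adjusted p = 0.00462). Gpx2, Akr1b8 and Cat kept their calls in every fit that left out 1 library. Gsr lost its call without NFF 2 or NFF 4 (adjusted p up to 0.056), Nqo1 without NFF 2 or NFF 4 (adjusted p up to 0.0556), Cbr1 (-0.98 ± 0.27, adjusted p = 0.0497) without Control 5, any 1 NFF library or any 1 SFB library (adjusted p up to 0.134) and G6pdx (0.54 ± 0.15, adjusted p = 0.049) without Control 4, Control 5, any 1 NFF library, SFB 1, SFB 2 or SFB 4 (adjusted p up to 0.139). The list had 3 calls without NFF 2 or NFF 4 and 2 without both SFB 2 and SFB 4. TGACNNNGC, the core of the antioxidant response element, was found in 29.03% of 31 promoter windows of the list, against 14.45% of windows of tested genes. It was found in 27.27% for the class II list and 25% for the SFB and IL-22 list, and in 4.55% to 20% for the other lists searched.

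Of 23 tested genes of retinoid handling, 5 were lower (21.7%, against 4.2% of all tested genes) and 0 higher, with a median of -0.27. Rdh7 and Adh1 act on retinol and other alcohols, and Aldh1a1 (-1.64 ± 0.39, adjusted p = 0.0278) makes retinoic acid from retinal. Adh1 stood at 80.2, 103, 74.4 and 121 RPKM in NFF and at 33.4, 17.9, 12.7 and 6.16 in SFB (-2.56 ± 0.53, adjusted p = 0.0171), while Control 2 reached 328 and the other Control libraries 61.8 and 72.1. Aldh1a7 (-1.3 ± 0.34, adjusted p = 0.0394) and Dhrs3, a retinal reductase (-0.56 ± 0.11, adjusted p = 0.0127), were the others. Rdh7 kept its call in every fit that left out 1 library. Adh1 was lost without NFF 2 or NFF 4 (adjusted p up to 0.0573), Aldh1a1 without any 1 NFF library or SFB 3 (adjusted p up to 0.0849), Aldh1a7 without Control 5, any 1 NFF library or SFB 3 (adjusted p up to 0.103) and Dhrs3 without NFF 2 (adjusted p up to 0.0556). The list had 3 calls without NFF 1, NFF 3 or both SFB 2 and SFB 4, 2 without NFF 4 and 1 without NFF 2. The retinol-binding protein Rbp2 (-0.63, adjusted p = 0.659) and the esterifying enzyme Lrat (-0.27, adjusted p = 0.364) were not called.

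Among 32 tested genes of PPAR alpha and fatty acid oxidation, 7 were lower (21.9%, against 4.2% of all tested genes) and 0 higher, with a median of -0.42. Acaa2, the thiolase of mitochondrial fatty acid oxidation, stood at 117, 173, 135 and 150.1 RPKM in NFF and at 60.2, 55.6, 50.6 and 75.3 in SFB (-1.24 ± 0.18, adjusted p = 0.00289), and Hsd17b4, a multifunctional enzyme of the peroxisome, at 79.4, 78.3, 77.1 and 66.4 and 45.1, 49.3, 30.8 and 33.01 (-0.93 ± 0.16, adjusted p = 0.00661). Both calls were kept in every fit that left out 1 library, and the groups did not overlap. Ppara itself was lower (-0.6 ± 0.12, adjusted p = 0.0135), as was Plin2, a coat protein of lipid droplets (-0.61 ± 0.16, adjusted p = 0.0422). Ppara lost its call without NFF 2 (adjusted p up to 0.0545) and Plin2 without Control 5, any 1 NFF library, SFB 1, SFB 2 or SFB 3 (adjusted p up to 0.122). Without Control 5, NFF 1 or SFB 1 the list had 4 calls, without NFF 3, NFF 4, SFB 3 or both SFB 2 and SFB 4 it had 3, and without NFF 2 it had 2. Of 29 tested genes of lipid absorption and chylomicrons, 0 were called by limma, while at an unadjusted p under 0.05 there were 4. The genes of lowest p were Clps, pancreatic colipase (-2.28, adjusted p = 0.0755), and Agpat2, an acyltransferase of triglyceride synthesis (-0.53, adjusted p = 0.123). Clps was at 74.5, 3.67, 54.3 and 31.35 RPKM in SFB, so that SFB 2, the library low in Paneth cell genes, was far below the others. Its difference ran from -2.755 to -1.42 over the fits that left out 1 library. The lipid list had 1 call without Control 2 or without SFB 2.

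Genes of sugar digestion and use were lower for 6 of 25 tested members (24%, against 4.2% of all tested genes) and higher for 1 (4%, against 3.14%), with a median of -0.75. Without SFB 4 the median was -0.48. Fbp1, a gluconeogenic phosphatase, stood at 13.6, 27.6, 28.7 and 24.04 RPKM in NFF and at 6.81, 6.34, 5.75 and 8.22 in SFB (-1.61 ± 0.25, adjusted p = 0.00387), and Mlxipl, which encodes the carbohydrate-sensing factor ChREBP, at 31.5, 33.3, 33.96 and 27.3 and 17.4, 11.6, 12.4 and 14.9 (-1.12 ± 0.15, adjusted p = 0.0022). These calls were kept in every fit that left out 1 library, with no overlap between groups. Sis, sucrase-isomaltase of the brush border, was at 373, 344, 445 and 267 RPKM in NFF and at 189, 214, 139 and 79.02 in SFB (-1.27 ± 0.31, adjusted p = 0.0305), a call lost without any 1 NFF library or SFB 3 (adjusted p up to 0.0847). Hk2, a hexokinase, was the gene called higher (0.99 ± 0.26, adjusted p = 0.0391), a call lost without Control 5, NFF 1, NFF 2, NFF 3, SFB 2, SFB 3 or SFB 4 (adjusted p up to 0.0986). Slc5a1, the main glucose transporter of the brush border (-0.43, adjusted p = 0.448), and Slc2a5, the fructose transporter (-1.3, adjusted p = 0.0513), were not called. The list had 4 calls without NFF 1 or SFB 4, 3 without both SFB 2 and SFB 4, and 2 without NFF 2, NFF 3 or SFB 3.

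Peptide and bile acid genes had few calls, with 1 of 29 (3.45%) and 1 of 22 (4.55%) tested genes lower and 0 higher. Both shares were near the 4.2% of all tested genes called lower. Slc6a20a, a proline transporter, stood at 96.8, 124, 104 and 96.5 RPKM in NFF and at 52.2, 47.5, 40.2 and 29.4 in SFB (-1.32 ± 0.19, adjusted p = 0.00289), kept in every fit that left out 1 library. Without SFB 1 the peptide list had 2 calls. Cubn, the ileal receptor for vitamin B12 bound to intrinsic factor, was lower (-1.93 ± 0.49, adjusted p = 0.0368), a call lost without any 1 NFF library, SFB 2 or SFB 3 (adjusted p up to 0.102). The bile acid list had 4 calls without SFB 4, 3 without Control 2, 2 without Control 5, SFB 2 or both SFB 2 and SFB 4, and 0 without SFB 3 or any 1 NFF library. Fgf15, the ileal hormone that signals bile acid uptake to the liver, was at 106, 71.5, 87.6 and 91.2 RPKM in NFF and at 24.7, 54.5, 27.2 and 1.39 in SFB (-2.34 ± 1.02, adjusted p = 0.177), not called although the groups did not overlap. Control values of Fgf15 ran over a wide range, at 0.05, 12.02 and 27.9 RPKM.

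Clock genes had calls in both directions, 3 of 15 tested higher (20%, against 3.14% of all tested genes) and 5 lower (33.3%, against 4.2%), with a median of -0.19. The output repressor Nfil3 and the output activators Dbp and Tef act on the same promoter element in opposite ways, and Nr1d1 represses both Nfil3 and the core factor Arntl. Nfil3 stood at 11.3, 8.12, 7.46 and 7.498 RPKM in NFF and at 29.4, 28.03, 31.6 and 27.7 in SFB (1.67 ± 0.18, adjusted p = 0.000719). The lowest SFB library was well above the highest NFF library. Dbp was at 0.896, 2.02, 1.53 and 3.89 RPKM in NFF and at 0.243, 0.199, 0.024 and 0.048 in SFB (-1.37 ± 0.24, adjusted p = 0.00708). It passed the filter only because of its NFF levels, which favours finding it lower. Nr1d1 was at 30.8, 37.6, 39.9 and 36.0 RPKM in NFF and at 16.9, 18.5, 9.85 and 5.77 in SFB (-1.54 ± 0.31, adjusted p = 0.0147). Bhlhe40, another repressor of the loop, was lower too (-1.31 ± 0.22, adjusted p = 0.00548). The remaining calls, named after their values were seen, were Arntl (0.84 ± 0.19, adjusted p = 0.0242) and Cry1 (0.81 ± 0.18, adjusted p = 0.0215) higher and Tef (-1.25 ± 0.2, adjusted p = 0.00436) and Nr1d2 (-0.82 ± 0.16, adjusted p = 0.0129) lower. Nfil3, Dbp, Bhlhe40 and Tef were called in every fit that left out 1 library, whereas Nr1d1 was lost without NFF 2 (adjusted p up to 0.0512), Arntl without NFF 2 or NFF 3 (adjusted p up to 0.054), Cry1 without NFF 2, NFF 3 or SFB 3 (adjusted p up to 0.0767) and Nr1d2 without NFF 2 (adjusted p up to 0.0509). Without NFF 2 the list had 4 calls. Clock (0.06, adjusted p = 0.82), Per2 (-0.22, adjusted p = 0.425) and Per3 (-0.19, adjusted p = 0.679) were not called. The hour at which each mouse was sampled was not given in the sources used here, so its part in these values was not tested. Of 24 tested immediate early genes, which respond to handling and dissociation of tissue, 0 were called by limma, with 6 at an unadjusted p under 0.05 and a median of -0.32. Btg2 (-0.91, adjusted p = 0.0736) and Gadd45g (-0.76, adjusted p = 0.139) had the lowest p, and the list had 1 call without Control 2.

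Control libraries mostly lay between the groups and nearer to NFF. The place of Control was taken as the distance of its mean log2 level from the NFF mean, divided by that of the SFB mean, so that 0 is NFF and 1 is SFB. Of the 769 called genes, 534 (69.44%) had Control between the groups and nearer NFF, 192 (24.97%) between and nearer SFB, 31 (4.031%) beyond NFF and 12 (1.56%) beyond SFB. Over all tested genes the shares were 28.3%, 23.11%, 26.84% and 21.76%. The calls rest on a large gap between SFB and NFF and so favour a place in between, and no test was made of these shares. The median place was 0.37 for genes called higher and 0.31 for genes called lower. Control was nearer NFF for 11 of 11 called GTPases, 7 of 7 class II genes, 23 of 23 tuft cell genes and 12 of 12 antiviral genes. It was so for 8 of 10 called genes of the SFB and IL-22 list, 6 of 8 clock genes, and 5 of 7 in each of the P450, NRF2, PPAR alpha and sugar lists. For class I peptide supply 5 called genes had Control nearer NFF and 4 nearer SFB, and for the cell cycle 2 and 4. Among the genes described, Ciita (place 0.02), Acaa2 (0.04) and Plet1 (0.09) had Control close to NFF. Cubn (0.92), Naip5 (0.92), Guca2a (0.85) and Cyp2u1 (0.73) had it nearer SFB. The share with Control nearer NFF or beyond it was 60.2% without Control 2, 64.69% without Control 5 and 81.32% without Control 4.

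**Figure D5:**
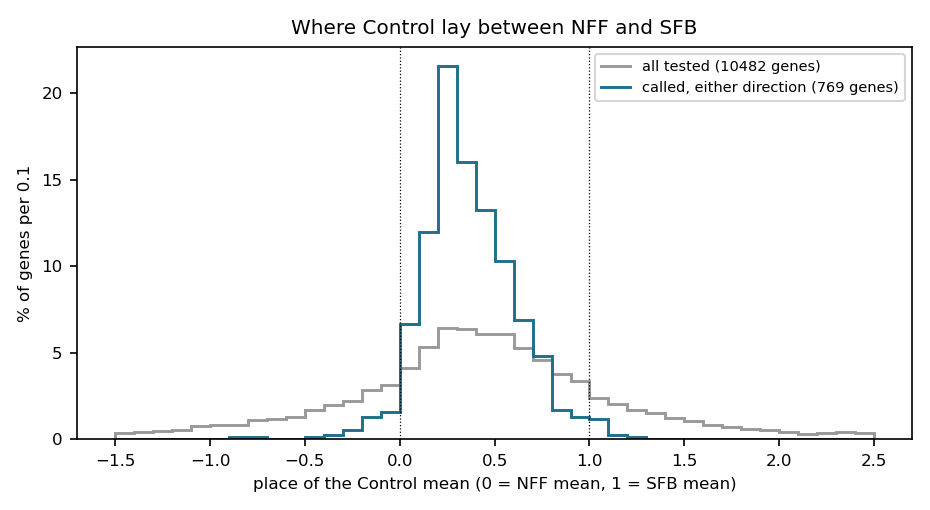
Share of genes (%, in steps of 0.1) by the place of the Control mean, with 0 at the NFF mean and 1 at the SFB mean; blue, the 769 genes called in either direction, grey, all 10482 tested genes. 1550 of the tested genes and 0 of the called genes lie outside the plotted range. The called genes peak between 0.2 and 0.3, with a median of 0.34.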

How the data were processed

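RNA of sorted epithelial cells was turned into full-length cDNA with the SMART-seq v4 kit and into libraries with the NexteraXT kit, per the labels' protocols. Neither kit marks strand or adds molecular identifiers, so overlapping genes can share reads and amplification copies were not removed by identifier. The authors deposited 1 table of RPKM values for 11366 genes, per the file headers. STAR and the mm10 genome are named in the submitters' processing notes. How reads were counted and scaled was not given in the sources used here. All value columns belonged to the 11 libraries, 5 values were listed at 0, and no count could be taken from the table, so depth and counting error are unknown and no count model was used.

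Genes were linked by Entrez identifier to RefSeq of GRCm38.p6, the assembly that mm10 names (11360 matched), which also restored 15 symbols turned into dates. Values were taken as log2(RPKM + 1). Genes with at least 1 RPKM in at least 3 libraries were fitted with limma 3.58.1 in R 4.3.3, with 1 mean per group over all 11 libraries (8 residual degrees of freedom) and eBayes with a mean trend. Calls had a Benjamini-Hochberg adjusted p under 0.05 over all 10482 genes. The script was tested on simulated data with known differences. Lists were described by counts and medians, without a test. Promoter windows and motif shares came from RefSeq.

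A few genes that the naming rule picks are not reported here. The members, lists and tests were chosen with earlier results of these data known. Named genes were the 12 largest called differences in each direction (mean of at least 3 RPKM, no overlap of the groups), up to 4 called genes of each list described or, where none was called, up to 2 of lowest unadjusted p, and a fixed set of immune, lineage, metabolic and gate genes. Members of a list named beyond this rule, such as Gbp2, Il10rb, Itgam, Lyve1, Tef and Arntl, were chosen after their values were seen.

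Alternatives changed the pseudocount (0.25 or 4), the filter (none, or at least 5 RPKM), the scaling (median ratio or quantile), the variance model (no trend, or robust) and the weights of the libraries. Others fitted SFB and NFF alone, added the replicate number as a block to that fit without Control, or left out 1 library at a time. A fit without both SFB 2 and SFB 4 and gene-by-gene weights were added after seeing the data.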

Additional observations from a re-analysis of the deposited data

Results flagged for a closer look

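Among 226 pairs of a named gene and a group of 4 libraries, 9 had a highest or lowest library set apart by Dixon's criterion, a rate close to the 1 in 20 that chance gives. The part of any cause was not tested.

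Lyz1 stood at 28.07 RPKM in SFB 2, against 1284 to 2603 in the other SFB libraries, and this library was low in the Paneth cell list as a whole. Plet1 was at 3.17 RPKM in SFB 1 and at 16.0 to 17.6 in the others. Rrm1, a subunit of ribonucleotide reductase, was at 25.87 RPKM in SFB 4 and at 6.54 to 8.27 in the others, in the library with the highest level of the cell cycle list. H2-Q4 was at 1.91 RPKM in SFB 4 against 3.14 to 3.26, and at 1.09 RPKM in NFF 3 against 1.49 to 1.56. Cat was at 88.64 RPKM and Hsd17b4 at 66.35 RPKM in NFF 4, against 110.1 to 110.97 and 77.13 to 79.39 in the other NFF libraries. Cyp2u1 was at 12.16 RPKM in NFF 1 against 17.62 to 18.11, and Irgm1 at 6.22 RPKM in NFF 2 against 7.10 to 7.25. In each of these genes the value set apart stayed on its own group's side of the other group.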

How the results depend on the processing

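No called gene that was tested turned direction under the 24 alternatives. The stricter filter tested 508 of the 769 and the others all of them. Many alternatives could not turn a gene. Changes of the filter, of the variance model, of the Control libraries or of the replicate block leave its log2 difference as it was. The result thus rests on the pseudocount, the scaling, the weights and the fits without SFB or NFF libraries. Counts of calls depended on the libraries and on the weights. Leaving out 1 library gave 242 to 1000 calls, 94 to 425 higher and 148 to 575 lower, and put Control nearer NFF or beyond it in 60.2% to 81.82% of called genes, against 769, 329, 440 and 73.47%. A stricter filter (at least 5 RPKM) left 6184 genes, with 189 higher calls and a share of 69.55%. Quantile normalization gave 1173 calls, 592 of them higher, and the share was not computed there. Array weights gave 4720 calls (2238 higher, 2482 lower) and 58.86%, but their estimate did not converge and set the weight of SFB 1 to 22.1. The gene-by-gene estimate, added after seeing the data, gave 3006 (1376 and 1630) and 62.77%, with a weight of 5.25. Leaving out both SFB 2 and SFB 4, also added, gave 401 calls (212 and 189) and 83.54%. The cause of these changes was not tested.

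With the replicate number as a block, fitted without Control, there were 283 calls (104 higher, 179 lower) and 77.74%, and 26 of 98 called named genes lost their call. SFB and NFF alone, without the block, gave 841 calls, and 5 of the 98 were lost. Same-numbered SFB and NFF libraries had correlations of 0.03, -0.18, -0.30 and -0.27 in their deviations from the group means, so the numbers were not read as pairs. Of uncalled genes, Epcam changed sign with quantile normalization (0.20), array weights (0.029) and gene-by-gene weights (0.018), and Fut2 with array weights (-0.094). Of the 98, leaving out 1 library lost 0 to 42 calls, the most without NFF 2. The list medians that took the other sign under an alternative were those of interferon receptors, STATs and IRFs (down to -0.02), NRF2 (down to -0.09) and clock genes (up to 0.06). Among medians that kept their sign, a pseudocount of 4, which shrinks differences of low genes, gave 0.92 for GTPases, 0.64 for class II, 0.79 for the cell cycle and -1.31 for tuft cells. Array weights gave -1.23 for tuft cells, -0.67 for Paneth cells, 0.79 for the cell cycle and -0.36 for sugar genes. Without SFB 4 the median went from -0.32 to -0.09 for lipid absorption and from -0.24 to -0.05 for peptide genes. It went from -0.43 to -0.22 for bile acid genes and from -0.19 to -0.02 for clock genes. Without SFB 2 the peptide median was -0.45, farther from 0. Counts of called list members also moved by over 1.5 times under other settings. The stricter filter, which tests fewer genes, left 4 GTPases, 5 clock genes and 0 class I chains. SFB and NFF fitted alone gave 10 phase II, 8 pattern recognition, 6 enteroendocrine and 2 chemokine calls. Quantile normalization gave 5 antimicrobial and 4 class I chain calls. The replicate block gave 5 class I supply, 1 class II, 2 PPAR alpha, 2 retinoid, 4 NRF2, 2 cell cycle and 0 chemokine calls, and array weights 40 cell cycle, 16 goblet and 25 antiviral calls.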
